A study of Mus musculus with 6 samples.

Results

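The protein constituents of the cytosolic ribosome were followed in mouse 4T1 tumours through 86 array probes of 58 genes. They were all probes with a single annotated symbol of the Rps or Rpl series, including the stalk genes Rplp0, Rplp1 and Rplp2, out of 45281 probes of 19057 named genes. Pseudogene symbols of other form and the Rps6k kinases were left out, and the rule reads symbols alone. A cytosolic ribosome joins a small subunit, which reads the messenger RNA, to a large subunit, which forms the peptide bond, and each carries its own set of proteins on a core of ribosomal RNA. Most of these proteins are made in equal amounts in every growing cell, and many of their messenger RNAs begin with a C followed by an unbroken run of pyrimidines. This terminal oligopyrimidine tract lets the kinase mTOR and the RNA-binding protein Larp1 govern their translation, a step that an array of RNA levels does not read. A few members have a narrower range, such as Rpl3l, the form of Rpl3 found in heart and skeletal muscle.

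The tumours came from 4T1 cells, a mammary carcinoma line of BALB/c mice, which had been stably transduced with a lentivirus. In one group the virus carried mouse uPA, the urokinase-type plasminogen activator, and in the other it was the empty vector, so that transduction was shared by both. The recipients were female BALB/c mice aged 8 to 10 weeks, which received the cells in a mammary fat pad and from which tumours were taken on day 7. There were 3 arrays labelled uPA overexpression and 3 labelled empty vector, and the labels do not say that each tumour grew in its own mouse. The p-values therefore measure only the spread between these samples, which may be technical. Whole tumours also hold host cells, and fewer cells of one type cannot be told apart from less RNA per cell.

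Plau, the gene of uPA, went against its label. Its log2 level was 11.94, 12.28 and 12.20 on the arrays labelled uPA overexpression 1, 2 and 3, against 12.97, 13.16 and 12.70 on empty vector 1, 2 and 3. The groups did not overlap, and the difference of -0.80 ± 0.15 (SE, n = 3 each) had an adjusted p of 0.0327 by limma. Without any 1 array the difference was -0.92 to -0.69, with adjusted p between 0.0518 and 0.108. The position of its only probe relative to the transferred sequence is not known. Every direction below is therefore that of the labels alone. Between 44.8% and 46.1% of probes were detected above background on the arrays labelled uPA overexpression, against 43.6% to 44.4% on the empty vector arrays. Of the epithelial markers Krt14, Esrp1, Cldn3 and others, 10 of 12 could be tested, while Epcam was detected on 0 arrays.

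The annotated transcription starts were read for the pyrimidine tract. RefSeq start sequences (assembly GRCm38.p6) were found for 47 of the 58 genes. A C at the annotated start followed by pyrimidines, with a run of 5 or more, occurred in 9 of the 47 (19.1%), against 467 of 17491 protein-coding genes (2.67%), and most members' annotated starts did not have it. Annotated starts can lie some bases away from the base used in a cell, so the count holds only for these coordinates. The members with the longest runs are shown together with the members whose signals differed most between the tumour groups. Each sequence gives 20 bases before the start and 10 from it, and capitals mark the pyrimidine run.
Rpl35, chr2:39005122-39005151, minus strand: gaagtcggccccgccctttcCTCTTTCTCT
Rps10, chr17:27635235-27635264, minus strand: acgctgcgccgcgcacgcccCTTCCTTTCC
Rps6, chr4:86857358-86857387, minus strand: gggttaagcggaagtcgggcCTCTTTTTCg
Rps15a, chr7:118116138-118116167, minus strand: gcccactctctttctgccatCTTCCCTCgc
Rplp0, chr5:115559447-115559476, plus strand: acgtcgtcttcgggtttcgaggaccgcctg
Rpl22, chr4:152325706-152325735, plus strand: ccgacttcgccctgggaaaagcaatagctg
The run was 11 bases in Rpl35, 10 in Rps10, 9 in Rps6 and 8 in Rps15a, and neither the Rplp0 start nor the Rpl22 start shown has a pyrimidine run at its first base. The motif GGGCGG, searched on both strands within 100 bases before the start, was present in 18 of the 47 genes (38.3%), against 36.5% of all protein-coding genes. TATAAA on the plus strand was present in 1 of the 47 (2.13%), against 5.12% of all.

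The comparison asked whether ribosomal protein RNA differed between tumours labelled uPA overexpression and empty vector tumours. Of the 58 genes, 52 could be tested, each through its brightest probe. A probe entered when 3 or more of the 6 arrays gave it a detection p below 0.05. By limma with Benjamini-Hochberg adjustment over all 10856 genes tested, 0 of the 52 were called higher and 0 lower at the threshold of 0.05, beside 5.37% of all genes tested (2.29% higher and 3.08% lower). Counted by probe, 0 of 72 tested member probes were called, beside 3.57% of all tested probes, with a smallest adjusted p of 0.121 among the members. At an unadjusted p under 0.05 there were 3 of 52, beside 21.3% of all genes. A fold above 1.5 with an unadjusted p under 0.05, the rule given in the study's design text, was met by 0 members and by 7.52% of all genes. Omitting background correction, the deposited processed values or another variance prior brought up to 2 members, Rplp0 and Rpl22, past the threshold, with values given among the alternatives. In those settings 7.81% to 8.05% of all genes were called. The number of all genes called was 33, 333 and 85 without uPA overexpression 1, 2 and 3, and 27, 604 and 63 without empty vector 1, 2 and 3, against 583 with every array, while 0 members were called each time.

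The 95% interval of the difference lay within a fold of 1.5 either way for 49 of the 52 members (94.2%), beside 64.3% of all genes. The exceptions were Rpl22, Rpl3l and Rps4l. Rplp0 lay only just inside, with an interval of -0.5841 to -0.1069, and its difference was -0.413 with scaling to the 75th percentile. The median difference of the members was -0.025 on the log2 scale, with single values from -0.38 to 0.16, beside a median of -0.0030 over all genes tested. The size of the difference, regardless of sign, had a median of 0.0515 in the members and 0.163 in all genes, and the median standard error was 0.102 in the members and 0.132 in all genes. Within 0.1 of no difference on the log2 scale lay 42 members (80.8%), against 32.4% of the other genes. The genes set beside the members span all signal levels, while most member probes were among the brightest. Whether other genes of equal signal differed as little was not tested. Both subunits had similar medians: -0.025 over 21 small subunit genes and -0.025 over 31 large subunit genes.

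**Figure D1:**
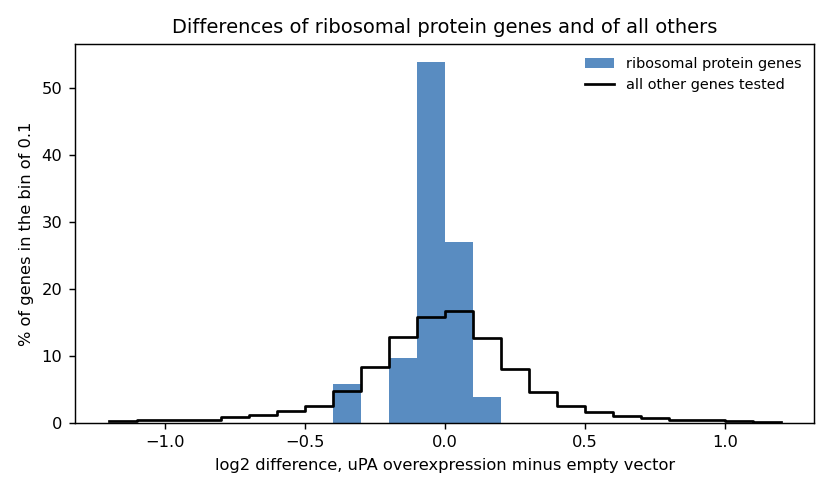
Distribution of log2 differences, arrays labelled uPA overexpression minus empty vector, for the 52 tested ribosomal protein genes and for the other 10804 tested genes; the horizontal axis is the log2 difference and the vertical axis the percent of genes in each bin of 0.1. Of the members 80.8% lie within 0.1 of no difference, against 32.4% of the other genes, and 140 other genes lie beyond the plotted range. The other genes were not matched to the members by signal.

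Signs were uneven among the members. The difference was below 0 in 36 members, above 0 in 15 and exactly 0 in 1, Rps9, that is 28.8% positive beside 49.5% of all genes tested. All members were read on the same 6 arrays, so these signs are not independent. Averaged over the members, the deviation from each gene's mean was -0.0422, -0.026 and 0.0165 on uPA overexpression 1, 2 and 3. On empty vector 1, 2 and 3 it was 0.0254, -0.0151 and 0.0414, so the groups overlapped. The 3 arrays of one group lay entirely apart from those of the other in 8 members (15.4%), beside 29.7% of all genes. In these 8, Rpl22, Rplp0, Rps15a, Rpl19, Rpl9, Rpl37, Rps24 and Rps14, all values of tumours labelled uPA overexpression lay below all empty vector values, a pattern found in 15.5% of all genes. The opposite pattern occurred in 0 members and in 14.2% of all genes. Each array was the lowest for some members: 11, 9 and 10 members on uPA overexpression 1, 2 and 3, and 5, 14 and 3 on empty vector 1, 2 and 3. Of all genes tested, the shares lowest on these arrays were, in the same order, 17.5%, 14.8%, 15.1%, 13.1%, 20% and 19.6%.

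**Figure D2:**
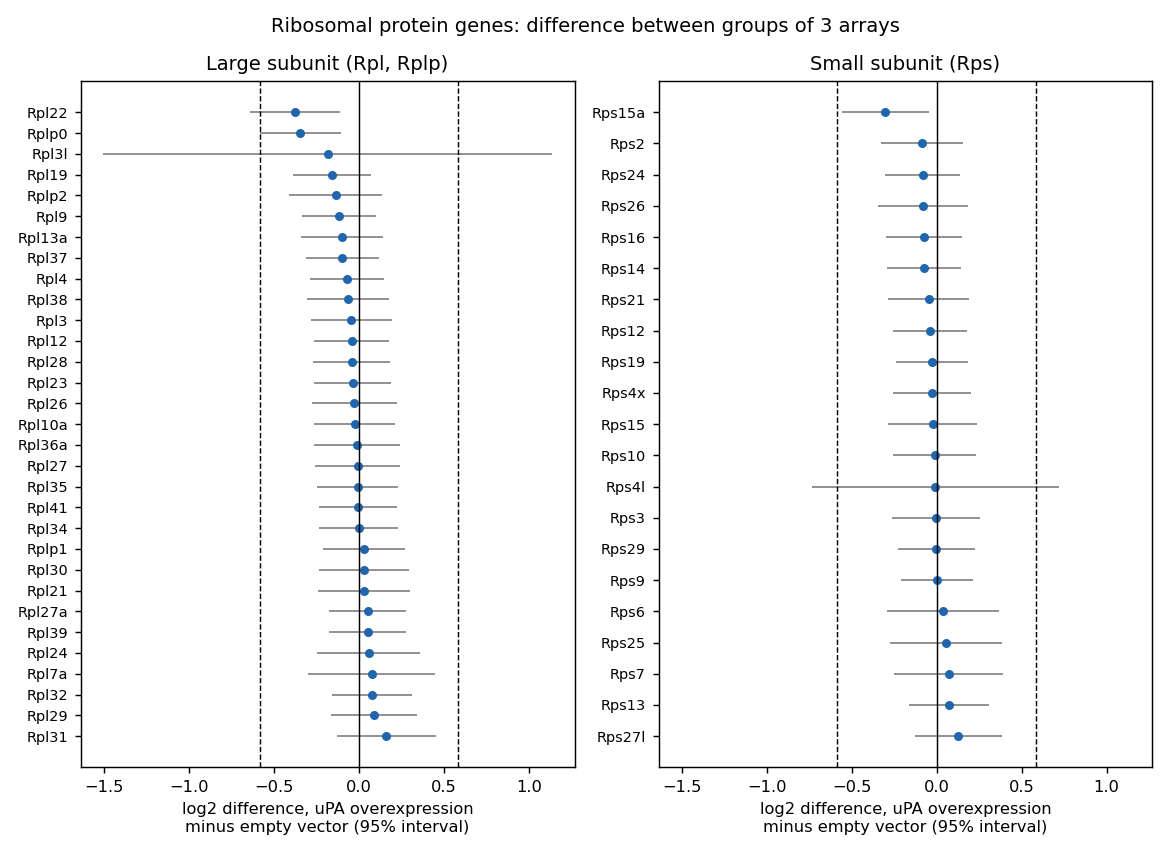
Log2 difference, arrays labelled uPA overexpression minus empty vector, of each of the 52 tested ribosomal protein genes with its 95% interval (bars), sorted by value in a panel for each subunit, with dashed lines at a fold of 1.5 either way. Most points sit near 0, Rpl22, Rplp0 and Rps15a have intervals below 0, and the interval of Rpl3l runs from -1.51 to 1.14.

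The most negative differences lay among members of lower signal. With a boundary chosen after the values were seen, the 45 members with a mean log2 level of 11 or more had 0 unadjusted p-values under 0.05, a smallest adjusted p of 0.410 and intervals within a fold of 1.5 in all 45. The 7 members below that level had differences from -0.38 to 0.032 and included all 3 members with an unadjusted p under 0.05. Their median of -0.18 was the value of Rpl3l, which had an SE of 0.56 and was -0.032 without background correction. Other genes of equally low signal were not set beside them. Representative probes of 39 of the 52 members lay in the top 1% of all probes by raw signal. After quantile normalisation some bright probes repeated values between arrays. Rps9 took only 3 distinct log2 levels over the 6 arrays, while brighter members such as Rps12 took more. Rplp1 was the brightest probe on 4 of the arrays, where it could rank no higher. Whether signal at this end was compressed was not tested.

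The stalk of the large subunit, formed by Rplp0 with pairs of Rplp1 and Rplp2, recruits the elongation factors. Rplp0, the base of the stalk, had log2 levels of 10.54, 10.68 and 10.51 in tumours labelled uPA overexpression, against 10.85, 10.94 and 10.98 in empty vector tumours. The groups were apart, and the difference was -0.35 ± 0.10 (SE, n = 3 each) with an adjusted p of 0.107 by limma. Before any correction its raw intensities were 1466, 1677 and 1635 in tumours labelled uPA overexpression and 2025, 1953 and 1940 in empty vector tumours, so the separation was already in the raw values. Rplp1 had log2 levels of 15.36, 15.45 and 15.45 in tumours labelled uPA overexpression, against 15.27, 15.45 and 15.45 in empty vector tumours, a difference of 0.029 ± 0.10, and the equal values are those of the brightest probe. Rplp2 was at 14.07, 13.77 and 14.02 in tumours labelled uPA overexpression, against 14.05, 14.16 and 14.06 in empty vector tumours. Its groups overlapped, with a difference of -0.14 ± 0.12 and an adjusted p of 0.556 by limma, and without uPA overexpression 2 the difference was -0.043. Of the stalk genes only Rplp0 had groups that did not overlap.

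Among large subunit genes, Rpl22 had the most negative difference. Its product binds RNA at the outer face of the ribosome and is dispensable for most protein synthesis, though developing T cells of the alpha-beta lineage need it in mice. Log2 levels were 10.62, 10.78 and 10.63 in tumours labelled uPA overexpression, against 10.90, 11.13 and 11.13 in empty vector tumours. The groups did not overlap, and the difference of -0.38 ± 0.11 (SE, n = 3 each) had an adjusted p of 0.114 by limma. Its raw intensities were also apart, at 1557, 1794 and 1753 in tumours labelled uPA overexpression and 2092, 2235 and 2169 in empty vector tumours. Its paralogue Rpl22l1, which in mice is held down by Rpl22, had a difference of -0.32 with an adjusted p of 0.369.

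Rpl19, a protein that bridges the subunits, had log2 levels of 12.09, 11.94 and 11.92 in tumours labelled uPA overexpression, against 12.14, 12.16 and 12.13 in empty vector tumours. These sets were apart by little, with a difference of -0.16 ± 0.10 and an adjusted p of 0.410 by limma. At the other end stood Rpl31, a protein at the exit of the peptide tunnel, with 14.17, 14.20 and 14.13 in tumours labelled uPA overexpression, against 14.10, 13.78 and 14.14 in empty vector tumours. Its difference of 0.16 ± 0.12, the highest of any member, had an adjusted p of 0.510, and the groups overlapped, with empty vector 2 lowest. Without that array the difference was 0.048, below the 0.101 of Rpl32 and the 0.092 of Rps27l. Rpl7a was also lowest on empty vector 2: its levels were 11.52, 11.53 and 11.60 in tumours labelled uPA overexpression, against 11.61, 11.12 and 11.69 in empty vector tumours, a difference of 0.075 ± 0.16. Rpl29 and Rpl32 followed with differences of 0.088 and 0.078 and adjusted p of 0.689 and 0.704 by limma. With an array left out they were as low as 0.030 for Rpl29 (without empty vector 2) and 0.035 for Rpl32 (without uPA overexpression 1).

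Core members of the large subunit were near 0. Rpl3, which lies by the peptidyl transferase centre, had log2 levels of 14.39, 14.55 and 14.39 in tumours labelled uPA overexpression, against 14.43, 14.56 and 14.48 in empty vector tumours, overlapping groups with a difference of -0.044 ± 0.10. The difference was -0.037 for Rpl23, which binds Mdm2 when free of the ribosome, and -0.028 for Rpl26, which binds the p53 messenger RNA. Rpl39, a short protein of the exit tunnel, had 0.052. The values of these members overlapped between the groups.

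**Figure D3:**
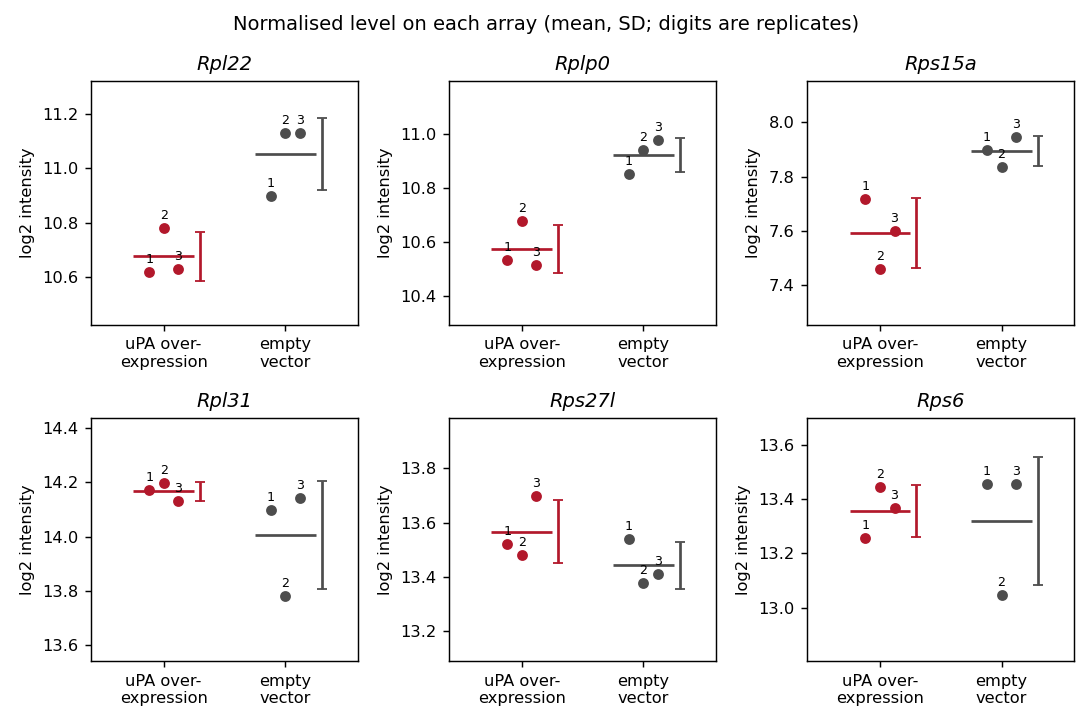
Log2 level on each of the 3 arrays labelled uPA overexpression and 3 empty vector arrays for members described in the text; points are single arrays numbered by replicate, lines are group means and bars the SD (n = 3). Rplp0, Rpl22 and Rps15a have groups that do not overlap, while those of Rpl31, Rps6 and Rps27l overlap.

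In the small subunit, Rps15a, whose start carries the run of 8 pyrimidines shown above, had the most negative difference. Its log2 levels were 7.72, 7.46 and 7.60 in tumours labelled uPA overexpression, against 7.90, 7.84 and 7.95 in empty vector tumours. The groups were apart, and the difference of -0.30 ± 0.11 (SE, n = 3 each) had an adjusted p of 0.174 by limma. Rps6, the protein that S6 kinase phosphorylates downstream of mTOR, had 13.26, 13.44 and 13.37 in tumours labelled uPA overexpression, against 13.46, 13.05 and 13.46 in empty vector tumours. The empty vector arrays spanned all values of the other group, and the difference was 0.037 ± 0.14. Rps19, often mutated in human Diamond-Blackfan anaemia, had overlapping levels of 14.21, 14.17 and 14.22 in tumours labelled uPA overexpression, against 14.26, 14.21 and 14.21 in empty vector tumours. Rps3, at the messenger RNA entry and also active in DNA repair, and the X-linked Rps4x had differences of -0.0033 and -0.028, with intervals of -0.26 to 0.26 and -0.26 to 0.20.

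Rps27l, a paralogue of Rps27 that is induced by p53, was the small subunit gene with the highest difference. Its log2 levels were 13.52, 13.48 and 13.70 in tumours labelled uPA overexpression, against 13.54, 13.38 and 13.41 in empty vector tumours, which overlapped. The difference of 0.12 ± 0.11 had an adjusted p of 0.565 by limma, and was 0.060 without uPA overexpression 3. Other p53 targets had differences of -0.37 for Cdkn1a, the cell cycle inhibitor p21, and -0.17 for Mdm2, the ubiquitin ligase of p53, with adjusted p of 0.285 and 0.520.

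Among tissue-restricted relatives, Rpl3l had log2 levels of 5.56, 5.95 and 7.97 in tumours labelled uPA overexpression, against 6.47, 6.77 and 6.80 in empty vector tumours. The third array labelled uPA overexpression stood above all others and the first and second stood below all others, so that the SD was 1.30 in that group and 0.180 in the empty vector group. Its difference was -0.18 ± 0.56 with an adjusted p of 0.883 by limma, and without that array -0.92 with an adjusted p of 0.0749. The signal of Rpl3l was low, with raw intensities of 102.6, 119.4 and 328.5 in tumours labelled uPA overexpression. In empty vector tumours they were 151.1, 156.0 and 158.3. With all arrays the difference was -0.032 without background correction, -0.066 with offset 50 and -0.029 in the deposited processed values. Of the 7 skeletal muscle markers on the array, 7 were highest on uPA overexpression 3 and 7 were second highest on empty vector 3. Acta1, skeletal muscle actin, was at 7.10, 8.29 and 12.12 in tumours labelled uPA overexpression, against 4.86, 4.74 and 10.18 in empty vector tumours. The summed level of the 5 tested muscle markers ran from 1609 to 9059 in tumours labelled uPA overexpression and from 1613 to 3533 in empty vector tumours, on the linear normalised scale. Muscle myosin Myh4 was detected on 2 arrays and muscle creatine kinase Ckm on 1. The part of muscle tissue in the Rpl3l values was not tested. Rps4l, a transcribed pseudogene in RefSeq, ranged from 5.51 to 6.85 in tumours labelled uPA overexpression and from 5.98 to 6.34 in empty vector tumours. Rpl39l, a paralogue known from male germ cells, was detected on 0 arrays.

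**Figure D4:**
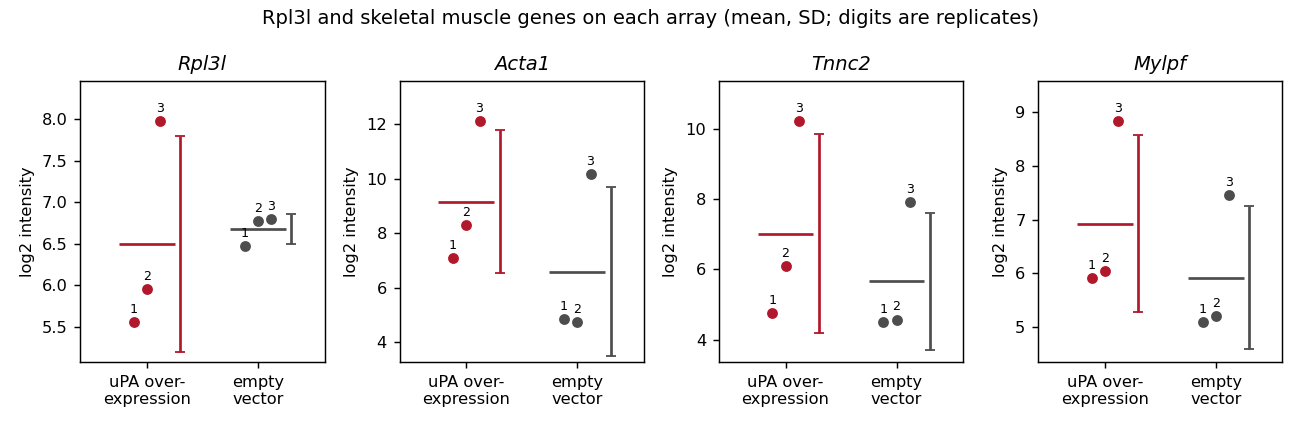
Log2 level on each array, by group, of Rpl3l and of the skeletal muscle genes Acta1, Tnnc2 and Mylpf; points are single arrays numbered by replicate, lines are group means and bars the SD (n = 3). The array labelled uPA overexpression 3 is highest in every panel, and Rpl3l on the first and second arrays of that label lies below all empty vector arrays while Acta1 does not.

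Probes of one gene did not always give the same difference. Such probes differ in signal and may read different transcripts, so the spans between them are not error alone. Of the 15 genes with several tested probes, 7 had probes of both signs, and the spans between their differences had a median of 0.144 and a maximum of 0.349. That maximum belonged to Rpl29, with differences of 0.44 and 0.088. The 0.44 (SE 0.24) came from a probe of low signal, detected on 5 arrays. Its mean log2 levels were 5.87 in tumours labelled uPA overexpression and 5.43 in empty vector tumours. For Rps24, whose last exons are spliced alternatively, the representative probe differed by -0.084 and the other probes by -0.27 and -0.28. The first of those other probes had log2 levels of 7.62, 7.60 and 7.58 in tumours labelled uPA overexpression, against 7.98, 7.85 and 7.77 in empty vector tumours. Adjusted over all tested probes its limma p was 0.205, and that of the second was 0.221, so 0 probes of Rps24 were called. The second was at 9.29, 9.20 and 9.35 in tumours labelled uPA overexpression, against 9.57, 9.44 and 9.69 in empty vector tumours, and neither probe had overlapping groups. Which transcript each probe reads is not known here. Ribosomal protein genes also have many processed pseudogenes with nearly the same sequence, so single members are uncertain where a probe could bind such copies.

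The remaining 6 genes, Rpl6, Rpl14, Rpl17, Rpl39l, Rps20 and Rps23, had 1 probe each. Rpl14 was above background on 1 array and the others on 0. Other probes of tested genes were also below background, and 14 member probes in all were not tested. Rpl5, Rpl10, Rpl11, Rps27 and Rps27a were not analysed here.

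Ribosomal proteins that carry other kinds of symbol had 6 tested genes, of which 0 were called, with a median difference of 0.0087. Rps3a1, which lies where messenger RNA leaves the small subunit, had -0.25, and Rpl36al, a copy of Rpl36a without introns, had 0.17. Their adjusted p were 0.369 and 0.351. Elongation factors had 8 tested genes, 0 called and a median of -0.048. Tpt1, whose messenger RNA carries the same kind of pyrimidine tract, had a difference of -0.33, and Eef1b2, the exchange factor of eEF1A, had -0.17.

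Initiation factors had 27 tested genes, 0 called and a median of -0.044. Eif4a2, an RNA helicase of the cap-binding complex, had log2 levels of 13.02, 12.78 and 12.86 in tumours labelled uPA overexpression, against 13.32, 13.25 and 13.40 in empty vector tumours. Its groups were apart, with a difference of -0.44 ± 0.11 (SE, n = 3 each) and an adjusted p of 0.0660 by limma. Eif2b5, the catalytic subunit of the exchange factor that recharges eIF2, had 10.47, 10.50 and 10.40 in tumours labelled uPA overexpression, against 10.14, 10.07 and 10.11 in empty vector tumours. This went the other way, with a difference of 0.35 ± 0.095 and an adjusted p of 0.0844 by limma. Both passed the threshold under several alternatives. With a trended and robust prior, which called 8.05% of all genes, Eif4a2 had -0.44 (adjusted p 0.0127 by limma) and Eif2b5 0.35 (0.0291). With the main processing Eif4ebp1, the repressor of cap binding that mTOR phosphorylates, had -0.28 with an adjusted p of 0.196 by limma.

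Ribosome biogenesis genes had 46 tested members, 0 called and a median difference of 0.032. Nop10, a small protein of the pseudouridylation particles, had 0.28, and Npm1, the nucleolar protein nucleophosmin, had -0.27, with adjusted p of 0.220 and 0.248 by limma. RNA polymerase I and its factors had 13 tested genes, 0 called and a median of -0.019, with -0.34 and an adjusted p of 0.108 for Polr1d, a subunit shared with polymerase III. Growth regulators had 9 tested genes, 0 called and a median of 0.042. Among them Myc, a transcriptional activator of many ribosomal genes, had 0.16 and Larp1 had 0.019. Proliferation genes had a median of 0.16, with 12 of 14 tested above 0 and 0 called. Mcm3, a subunit of the replicative helicase, had the largest difference there at 0.52 ± 0.14 with an adjusted p of 0.0764 by limma.

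Markers of several cell types differed between the same tumours. Macrophage markers had 8 of 11 tested genes called higher and a summed level of 48209 to 58124 in tumours labelled uPA overexpression, against 23038 to 28664 in empty vector tumours. Mast cell markers had 6 of 8 called higher, with sums of 3584 to 4516 in tumours labelled uPA overexpression and 1302 to 1895 in empty vector tumours. Epithelial markers had 6 of 10 called lower, with sums of 26914 to 31918 in tumours labelled uPA overexpression and 44849 to 50740 in empty vector tumours. Neutrophil markers had 3 of 7 called lower, with sums of 3468 to 8497 in tumours labelled uPA overexpression and 14367 to 15478 in empty vector tumours. Most of that sum was Mmp9, a matrix protease, with a difference of -1.73, while Csf3r and Retnlg had -0.21 and -0.22 and were not called. T cell markers had 0 of 6 tested called and a median difference of 0.31, and Cd4, Cd5 and Cd8a were detected on 0 arrays. Without any 1 array, called markers numbered 0 to 8 for macrophages, 1 to 6 for mast cells, 0 to 7 for epithelium and 0 to 2 for neutrophils. Each lowest count came without uPA overexpression 1, for macrophages, epithelium and neutrophils also without empty vector 1, and for neutrophils also without uPA overexpression 3. The part of cell makeup in the values of Rpl22, Rplp0 or Rps15a was not tested.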

How the data were processed

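Tumour RNA was read on 6 arrays of the Illumina MouseWG-6 BeadChip, 3 arrays per group by title. The deposited raw table gives an intensity per probe, neither background-corrected nor normalised in its values, with a detection value that rises with intensity (mean rank correlation 0.985) and was used as 1 minus a p-value; the deposited header names it a p-value. The deposited processed values are log2 and were made with GeneSpring GX 11.0 per the submitters' processing notes; the level on which each probe was centred is unknown. The tables name probes differently, so rows were joined by their values over the arrays. All 45281 were matched, 41 of them jointly, with matched rows a median of 0.00038 apart and the next nearest rows 0.0325 apart. No list of the maker's was at hand to check this join. Gene symbols are those of the GEO platform annotation (34885 probes with 1 symbol, 18 with several, 10378 with none).

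Background was corrected by normexp (offset 16, negative controls inferred from detection p), then values were quantile-normalised and put on the log2 scale in limma 3.58.1 under R 4.3.3. Of all probes, 20434 had a detection p below 0.05 on 3 or more arrays and were tested, and a gene was represented by its brightest tested probe. lmFit and eBayes gave two-sided p-values (4 residual and 3.35 prior degrees of freedom), adjusted over all 10856 genes. The fit was tested on simulated data, drawn as independent normal values with known changes larger than the difference of any member. That test does not cover shared array effects or differences of the members' size. Named members were the 5 highest and 5 lowest differences, members picked by role, and Plau; other lists gave up to 4 genes of smallest p each. The members' rule reads symbols only, but the members and lists were chosen with earlier results of these data known. Two-sided exact permutation of 3 against 3 arrays cannot go below 0.10. Start sequences came from RefSeq (GRCm38.p6), without matching to a build of the array; protein sequences were not analysed here. Alternatives were no background correction, offset 50, 75th percentile scaling, no filter, a filter on 6 arrays, array weights, a replicate block, the processed values as deposited, a robust prior with trend, the mean of all probes, probes counted singly, each array left out and, chosen after seeing the data, quantiles set by the other probes.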

Additional observations from a re-analysis of the deposited data

How the results depend on the processing

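Across 18 alternatives 0 members were called higher, and the count called lower stayed 0 except for 3 settings by limma: 1 without background correction (Rplp0 -0.34, adjusted p 0.0445), 1 in the deposited processed values (Rplp0 -0.34, adjusted p 0.0423) and 2 with a trended and robust prior (Rpl22 -0.38, adjusted p 0.0413, and Rplp0 -0.35, adjusted p 0.0371). In those 3 settings 7.81%, 7.86% and 8.05% of all genes were called, against 5.37% with the main processing. With an array left out the share of all genes called was 0.249% to 5.56%, so 0 members where it was lowest says little. Over the alternatives adjusted p by limma ran from 0.0413 to 0.284 for Rpl22, from 0.0371 to 0.285 for Rplp0 and from 0.0716 to 0.395 for Rps15a. Scaling to the 75th percentile moved the median of all genes to -0.048 and those of all members, small and large subunit genes to -0.053, -0.052 and -0.067. With each array left out the medians ran from -0.055 to -0.009 for all members, -0.055 to -0.013 for the small and -0.055 to 0.002 for the large subunit, all lowest without empty vector 2. Genes of the translation, growth and proliferation lists called numbered 4 without background correction, 3 with offset 50, 1 with percentile scaling and 1 without a filter. They numbered 4 in the deposited values, 4 with array weights, 4 with the trended prior, and 0 to 1 with an array left out. The shares of all genes called were, in the same order, 7.81%, 7.36%, 5.44%, 2.82%, 7.86%, 9.86%, 8.05% and 0.249% to 5.56%. The tested sizes of the lists are given above. The list genes called were Eif4a2 (adjusted p 0.0127 to 0.0432 by limma where called), Eif2b5 (0.0291 to 0.0497), Mcm3, Polr1d and Eif3a. Signs turned for Rplp1 (-0.022 with scaling, -0.004 with quantiles set by the other probes), Rps6 (-0.021 with scaling, -0.049 with array weights), Rpl3l (0.027) and Rpl7a (-0.045) with array weights, and Rps3 (0.036 with the mean of all probes). With an array left out, ranges crossed 0 for Rpl26 (-0.092 to 0.009), Rpl3l (-0.923 to 0.285), Rpl7a (-0.1 to 0.181), Rplp1 (-0.031 to 0.06), Rps3 (-0.085 to 0.043), Rps4x (-0.059 to 0.011) and Rps6 (-0.1 to 0.106). The cause was not tested. Same-numbered arrays deviated with correlations of -0.111, -0.222 and 0.116, beside -0.148 to 0.309 for arrays of unlike number. With 3 arrays a group these values can neither show nor exclude a pairing or a shared batch. With the replicate block 0 members were called, the smallest adjusted p by limma was 0.241 and the median was -0.025. In that setting Plau had an adjusted p of 0.0811 by limma, and 77 genes of all were called against 583. With 3 arrays a group and members at the bright end, differences much below the intervals given could not be seen.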
